A study of Homo sapiens with 12 samples.

Results

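This account concerns IL1R2, the decoy receptor of interleukin-1, and 9 further genes of the interleukin-1 family and its processing: IL1R1, IL1RAP, IL1RN, IL1A, IL1B, IL18, IL18RAP, IL1RL1 and CASP1. The members were taken as the probe sets annotated to exactly 1 of these symbols, which gave 24 of the 22215 probe sets that are no controls, and 10 of the 11963 genes so named. IL1R2 was chosen from its higher signal with CHD4 shRNA in both lines, so its changes with the shRNA are given as a description with no test. The other 9 genes were added as its relatives, with earlier results of these data known.

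Transcripts were measured on 12 Affymetrix arrays from 2 human lines of acute myeloid leukaemia. By label, 1 line was U937, known as monocytic. The other was MV4-11, known as myelomonocytic with both an MLL fusion and an internally duplicated FLT3. The groups were U937 with CHD4 shRNA, U937 with scrambled shRNA, MV4-11 with CHD4 shRNA and MV4-11 with scrambled shRNA, with 3 arrays each. The identity of the lines was not tested. At a limma adjusted p under 0.05, scrambled MV4-11 and scrambled U937 differed on 4.45% of probe sets. The shRNA groups of MV4-11 differed on 7.47%, and the lowest correlation between 2 arrays was 0.974. The series description asks how loss of CHD4, the ATPase of the NuRD chromatin remodelling complex, affects the transcriptome, and calls the triplicates biological. All 4 groups carried a lentiviral vector that expresses GFP and a short hairpin from an H1 promoter, and were grown in RPMI with serum, penicillin and streptomycin. Whether cells were sorted for GFP, and how many hairpin sequences or clones were used, is not given in the sources used here. Sample labels write CDH4 for the target, while the series text writes CHD4. The groups are called CHD4 shRNA because CHD4 was lower in them: its brightest probe set averaged 8.27 ± 0.16 with CHD4 shRNA and 10.47 ± 0.21 with scrambled shRNA in U937, and 8.68 ± 0.25 with CHD4 shRNA and 10.67 ± 0.02 with scrambled shRNA in MV4-11 (log2 RMA values, SD, n = 3 each). The 3 CHD4 probe sets differed by -1.75 to -2.20 on the log2 scale, with limma adjusted p between 1.2e-05 and 6e-05.

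Interleukin-1 alpha and beta signal through the receptor IL1R1 and its accessory chain IL1RAP, which recruit MYD88 and IRAK kinases and lead to NF-kappaB activation. IL1R2 binds the same ligands but lacks the intracellular signalling domain, so it acts as a decoy, and IL1RN is a soluble antagonist that occupies IL1R1. Pro-interleukin-1 beta and pro-interleukin-18 are cut into their active forms by caspase-1 in inflammasomes. Monocytes and neutrophils are known as major sources of IL1B, IL1RN and IL1R2.

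Promoter windows from RefSeq (GRCh38.p14) reach from 250 bases before to 50 bases after an annotated start, and 8 of the 10 members were found in that table. They are shown for the genes whose transcripts differed most between the shRNA groups: both annotated starts of IL1R2, then IL1B, then the first of 3 starts of IL18RAP. Each sequence is 5′ to 3′ on the strand of the gene. Capitals mark matches, on either strand, to 6 searched motifs. These were the kappaB motif of NF-kappaB and the IRF motif of interferon regulatory factors, the AP-1 site of FOS and JUN dimers (TGANTCA), the ETS core of factors such as SPI1 (GAGGAA), the C/EBP site of factors that guide myeloid differentiation (TTGNNNAA), and the TATA box that positions the start of transcription (TATAAA).
IL1R2 start 1, chr2:101991710-101992009, plus strand: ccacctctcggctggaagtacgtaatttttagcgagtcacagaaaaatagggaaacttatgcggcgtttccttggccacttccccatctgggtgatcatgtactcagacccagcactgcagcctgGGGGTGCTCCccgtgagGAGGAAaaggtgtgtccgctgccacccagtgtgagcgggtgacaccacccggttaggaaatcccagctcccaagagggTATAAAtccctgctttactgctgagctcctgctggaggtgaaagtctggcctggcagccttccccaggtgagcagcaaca
IL1R2 start 2, chr2:101998711-101999010, plus strand: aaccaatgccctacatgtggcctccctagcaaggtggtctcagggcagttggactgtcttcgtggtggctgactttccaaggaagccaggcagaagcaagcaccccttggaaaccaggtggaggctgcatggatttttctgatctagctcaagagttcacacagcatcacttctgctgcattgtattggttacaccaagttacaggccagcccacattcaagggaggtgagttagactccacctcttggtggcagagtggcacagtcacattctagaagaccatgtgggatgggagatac
IL1B, chr2:112836730-112837029, minus strand: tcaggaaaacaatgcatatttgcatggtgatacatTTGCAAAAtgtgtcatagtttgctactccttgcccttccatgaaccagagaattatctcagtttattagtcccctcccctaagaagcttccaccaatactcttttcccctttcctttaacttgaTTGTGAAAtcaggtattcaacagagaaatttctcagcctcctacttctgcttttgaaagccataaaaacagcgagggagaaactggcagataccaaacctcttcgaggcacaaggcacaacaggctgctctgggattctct
IL18RAP start 1, chr2:102418371-102418670, plus strand: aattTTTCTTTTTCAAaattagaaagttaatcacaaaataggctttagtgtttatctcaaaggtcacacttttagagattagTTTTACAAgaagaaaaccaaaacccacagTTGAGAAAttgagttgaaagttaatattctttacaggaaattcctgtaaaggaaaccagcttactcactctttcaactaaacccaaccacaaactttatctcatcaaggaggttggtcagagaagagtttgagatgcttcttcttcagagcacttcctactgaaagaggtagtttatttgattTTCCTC

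The first IL1R2 window held a kappaB match that begins 125 bases before the start, an ETS core 108 bases before it and a TATA match 30 bases before it. The second IL1R2 window held none of the 6 motifs. The IL1B window held C/EBP matches 215 and 91 bases before the start. The IL18RAP window held an IRF match on the opposite strand 246 bases before the start, overlapped by a C/EBP match 242 bases before it, with C/EBP matches 168 and 139 bases before the start and an ETS core 44 bases after it. Of 34796 RefSeq windows of this length, 11.3% held kappaB, 7.73% AP-1, 27.9% the ETS core, 33.5% C/EBP, 3.57% IRF and 11.6% TATA. These matches describe the letters only, and absence from a window says nothing of the factor.

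Levels below are log2 RMA values as deposited, changes are CHD4 shRNA minus scrambled shRNA on the log2 scale with their standard error (SE), and adjusted p are from limma over all 22215 probe sets with a threshold of 0.05. A level is compared only within 1 probe set. On arrays of bulk RNA, a change in the share of cells that express a gene and a change in RNA per cell cannot be told apart. The arrays carried the myeloid transcript LYZ, which encodes lysozyme, at 13.73 with CHD4 shRNA and 13.73 with scrambled shRNA in U937, and at 13.60 with CHD4 shRNA and 13.24 with scrambled shRNA in MV4-11. Its mean lay above 99% of probe sets. CD14, the monocyte co-receptor for lipopolysaccharide, averaged 5.31 with CHD4 shRNA and 5.20 with scrambled shRNA in U937. In MV4-11 it averaged 5.11 with CHD4 shRNA and 5.05 with scrambled shRNA, and its mean lay at the 22.9 percentile of probe sets. The arrays hold no detection calls and have no value of 0. Across the tested probe sets, 4.51% were past the threshold in U937 (413 higher and 589 lower) and 7.47% in MV4-11 (862 higher and 797 lower).

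IL1R2 was higher with CHD4 shRNA in both lines, by about the same amount on the brighter of its 2 probe sets. On its first probe set (205403_at), the U937 arrays read 6.80, 6.88 and 7.44 with CHD4 shRNA, against 4.90, 4.66 and 4.14 with scrambled shRNA. The MV4-11 arrays read 7.95, 7.35 and 6.97 with CHD4 shRNA, against 4.86, 4.96 and 4.86 with scrambled shRNA. Every CHD4 shRNA array was above every scrambled array of either line. The change was 2.47 (SE 0.24) in U937, a 5.55-fold higher signal, and 2.53 (SE 0.24) in MV4-11, a 5.78-fold higher signal. The scrambled levels lie in the dim range of these arrays, where background compresses differences. IL1R2 ranked 6th by size of rise among 11963 genes in U937 and 9th in MV4-11. A high rank follows from how the gene was chosen and adds no evidence. The change in MV4-11 exceeded that in U937 by 0.06 (SE 0.34), less than its SE.

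The second IL1R2 probe set (211372_s_at) went the same way with a smaller change. In U937 it read 5.85, 5.85 and 6.68 with CHD4 shRNA, against 4.82, 5.30 and 4.80 with scrambled shRNA. In MV4-11 it read 7.26, 6.44 and 6.29 with CHD4 shRNA, against 5.23, 4.91 and 4.86 with scrambled shRNA. Scrambled and CHD4 shRNA arrays were fully apart in each line, and the changes were 1.15 (SE 0.26) in U937 and 1.66 (SE 0.26) in MV4-11. In order of mean level on 205403_at, MV4-11 with CHD4 shRNA stood first at 7.42 ± 0.49, then U937 with CHD4 shRNA at 7.04 ± 0.35, then scrambled MV4-11 at 4.89 ± 0.06 and scrambled U937 at 4.57 ± 0.39 (SD, n = 3 each). The first and second of these overlapped, as did the scrambled groups of both lines, while no CHD4 shRNA array reached down to a scrambled array. Leaving out any 1 array kept the 205403_at change between 2.26 and 2.64 in U937 and between 2.27 and 2.76 in MV4-11.

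**Figure D1:**
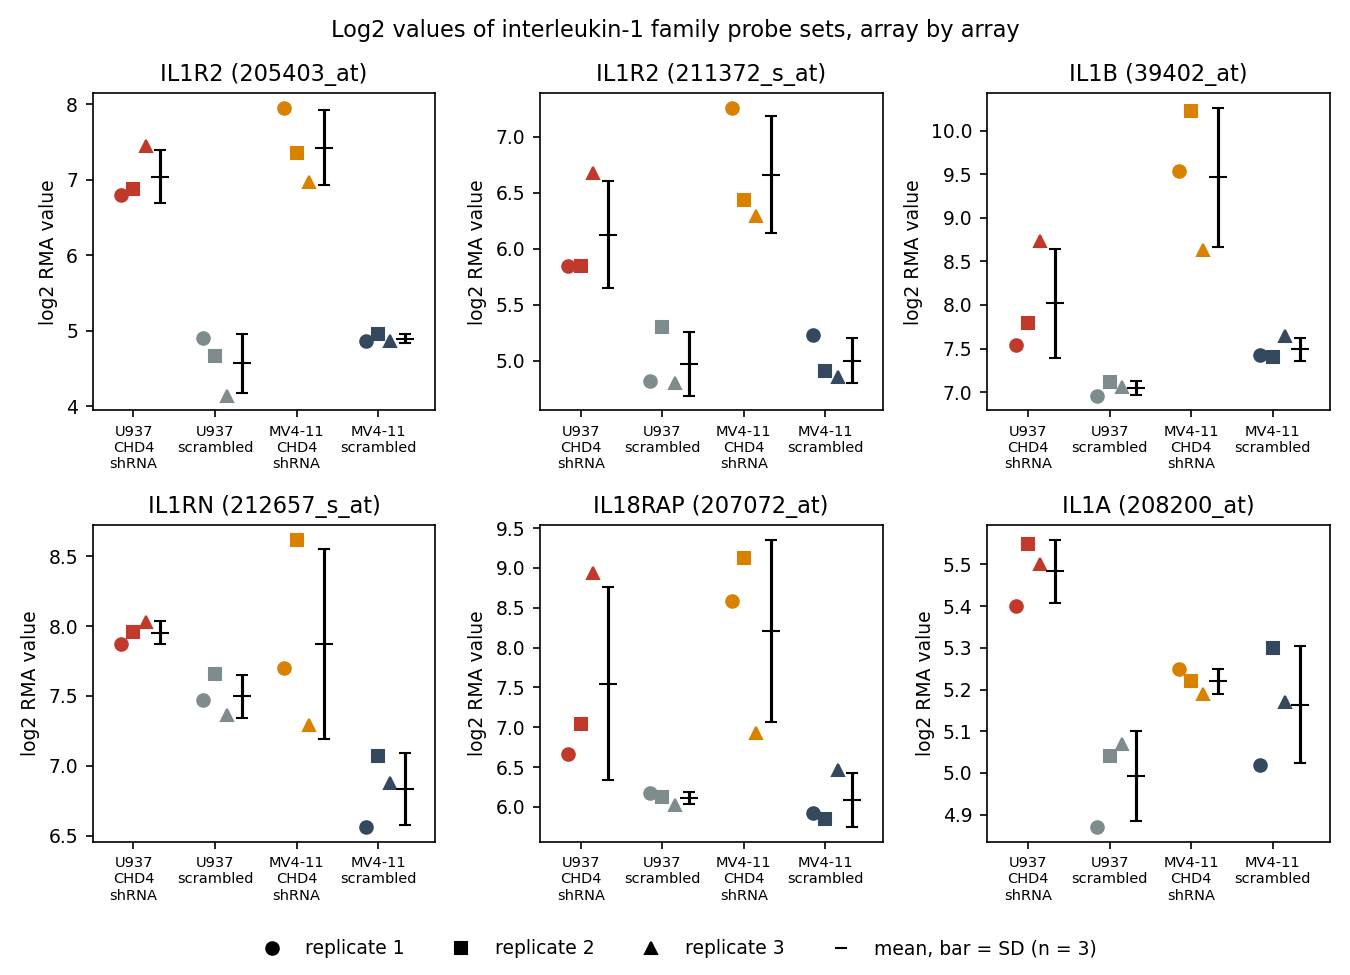
Log2 RMA values (y axis) of 6 probe sets on each of the 12 arrays, by group (x axis), with symbols for the replicate number and the mean with its SD (n = 3) beside each group; the y axes differ and do not start at 0. Both IL1R2 probe sets separate CHD4 shRNA from scrambled arrays in both lines. IL1R2, IL1B, IL1RN and IL18RAP all vary more among the CHD4 shRNA arrays of MV4-11 than among its scrambled arrays.

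IL1B, the main secreted interleukin-1 ligand of myeloid cells, rose in MV4-11 on both of its probe sets. On 39402_at the MV4-11 arrays read 9.54, 10.22 and 8.63 with CHD4 shRNA, against 7.43, 7.40 and 7.64 with scrambled shRNA. The U937 arrays read 7.54, 7.79 and 8.73 with CHD4 shRNA, against 6.96, 7.12 and 7.06 with scrambled shRNA. In both lines the lowest CHD4 shRNA array was above the highest scrambled array. The change was 1.97 (SE 0.34) in MV4-11, 3.93-fold higher, with an adjusted p of 0.00483, and 0.97 (SE 0.34) in U937, with an adjusted p of 0.140. The other probe set, 205067_at, gave 1.91 (SE 0.33, adjusted p = 0.00483) in MV4-11 and 1.12 (SE 0.33, adjusted p = 0.0777) in U937. The MV4-11 change exceeded the U937 change by 1.00 (SE 0.48) on 39402_at, and this difference had an adjusted p of 0.944. The MV4-11 call stood in each of the 12 fits that left out 1 array, with changes between 1.60 and 2.39 on 39402_at. In U937, 205067_at passed the threshold without MV4-11 CHD4 shRNA replicate 2 (adjusted p = 0.0384) or replicate 3 (adjusted p = 0.0190), and 39402_at passed it without replicate 3 of that group (adjusted p = 0.0407), because the 4 groups share 1 estimate of spread. With only the U937 arrays in the fit, 205067_at passed too (adjusted p = 0.0381).

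IL1A, a ligand of the same receptor that is active without caspase-1, rose in U937 by a small amount on 1 of its 2 probe sets. On 208200_at the U937 arrays read 5.40, 5.55 and 5.50 with CHD4 shRNA, against 4.87, 5.04 and 5.07 with scrambled shRNA, and the groups did not overlap. The change was 0.49 (SE 0.10, adjusted p = 0.0124). The MV4-11 arrays read 5.25, 5.22 and 5.19 with CHD4 shRNA, against 5.02, 5.30 and 5.17 with scrambled shRNA, which overlap, with a change of 0.06 (adjusted p = 0.800). The second probe set, 210118_s_at, had changes of -0.17 (adjusted p = 0.548) in U937 and -0.04 (adjusted p = 0.886) in MV4-11, so the U937 sign differed between the probe sets. Without U937 scrambled shRNA replicate 1 or U937 CHD4 shRNA replicate 2, the call on 208200_at was lost, with adjusted p of 0.0624 and 0.0620.

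IL18, the other caspase-1 substrate of the family, did not pass the threshold in either line. Its single probe set read 8.29, 8.09 and 8.29 in U937 with CHD4 shRNA, against 8.43, 8.46 and 8.88 with scrambled shRNA. These groups do not overlap, and the change was -0.37 (SE 0.18, adjusted p = 0.335). In MV4-11 the arrays read 7.92, 7.47 and 7.83 with CHD4 shRNA, against 7.43, 7.78 and 8.16 with scrambled shRNA, which overlap (change -0.05, adjusted p = 0.914).

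IL1RN, the receptor antagonist, rose in MV4-11 on the brightest of its 5 probe sets. On 212657_s_at the MV4-11 arrays read 7.70, 8.62 and 7.29 with CHD4 shRNA, against 6.56, 7.07 and 6.88 with scrambled shRNA. The U937 arrays read 7.87, 7.96 and 8.03 with CHD4 shRNA, against 7.47, 7.66 and 7.36 with scrambled shRNA. No scrambled array reached the CHD4 shRNA arrays of its line. The change was 1.03 (SE 0.25, adjusted p = 0.0266) in MV4-11 and 0.46 (SE 0.25, adjusted p = 0.400) in U937. With only the U937 arrays in the fit, the U937 change passed the threshold (adjusted p = 0.0442). The MV4-11 change was 0.66 without CHD4 shRNA replicate 2, still past the threshold at an adjusted p of 0.0396. The call was lost, with adjusted p between 0.0658 and 0.0913, when scrambled shRNA replicate 1, scrambled shRNA replicate 3 or CHD4 shRNA replicate 1 of MV4-11 was left out. The next probe set, 212659_s_at, had a change of 0.36 in MV4-11 (SE 0.12, adjusted p = 0.0999) with groups that did not overlap, and passed the threshold without MV4-11 CHD4 shRNA replicate 3 (adjusted p = 0.0312). The 3 dimmer probe sets changed by 0.11 to 0.19 in U937 and by -0.14 to 0.17 in MV4-11, none past the threshold.

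IL18RAP, the accessory chain of the interleukin-18 receptor, had the largest mean change of the tested members and also the largest spread. Its probe set read 8.59, 9.12 and 6.93 in MV4-11 with CHD4 shRNA, against 5.93, 5.85 and 6.47 with scrambled shRNA. In U937 it read 6.67, 7.04 and 8.93 with CHD4 shRNA, against 6.17, 6.13 and 6.03 with scrambled shRNA. CHD4 shRNA arrays lay above scrambled arrays in both lines, with a single array far above its group in U937 and a single array far below its group in MV4-11. The change was 2.13 (SE 0.55, adjusted p = 0.0354) in MV4-11, a 4.38-fold higher signal, and 1.44 (SE 0.55, adjusted p = 0.186) in U937. The MV4-11 call was lost, with adjusted p between 0.0537 and 0.137, when any of 7 arrays was left out: scrambled shRNA replicates 1 and 2 of U937, all 3 scrambled arrays of MV4-11, or CHD4 shRNA replicates 1 and 2 of MV4-11. It was also lost with a trended and robust variance estimate (adjusted p = 0.0546) and when the fit held MV4-11 alone (adjusted p = 0.0671). The last of these fits lost the IL1RN call too, at an adjusted p of 0.127.

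The receptor genes IL1R1, IL1RAP and IL1RL1 did not pass the threshold in either line. IL1R1, the receptor that transmits the interleukin-1 signal, read between 3.94 and 4.08 with CHD4 shRNA and between 3.93 and 4.19 with scrambled shRNA on 215561_s_at over both lines, with changes of 0.02 in U937 (adjusted p = 0.962) and -0.11 in MV4-11 (adjusted p = 0.546). Its other probe set, 202948_at, changed by -0.14 in U937 (adjusted p = 0.579) and 0.16 in MV4-11 (adjusted p = 0.395). Both lie in the dim range of these arrays, where background compresses differences. IL1RAP, the accessory chain shared by several receptors of the family, was well above that range. On 205227_at it read 7.36, 7.59 and 7.45 in U937 with CHD4 shRNA, against 7.34, 7.61 and 7.53 with scrambled shRNA (change -0.03, SE 0.26, adjusted p = 0.979). In MV4-11 it read 8.56, 9.43 and 8.19 with CHD4 shRNA, against 8.22, 8.98 and 8.44 with scrambled shRNA (change 0.18, SE 0.26, adjusted p = 0.759). Both pairs of groups overlapped. Its second probe set, 210233_at, changed by -0.11 (adjusted p = 0.889) and -0.22 (adjusted p = 0.675) in U937 and MV4-11, and passed the threshold as a fall in MV4-11 only without MV4-11 scrambled shRNA replicate 1 (change -0.60, adjusted p = 0.0351). IL1RL1, the receptor for IL33, changed by -0.09 and -0.29 on its 2 probe sets in U937 and by 0.00 and -0.23 in MV4-11, with adjusted p of 0.376 or more.

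CASP1, the protease that activates IL1B and IL18, did not pass the threshold on any of 5 probe sets. Some of these carry suffixes that Affymetrix uses for probes that may bind related transcripts. On 209970_x_at the U937 arrays read 8.36, 8.31 and 8.73 with CHD4 shRNA, against 8.85, 8.89 and 8.54 with scrambled shRNA. The MV4-11 arrays read 8.54, 9.30 and 8.44 with CHD4 shRNA, against 8.31, 9.12 and 8.81 with scrambled shRNA. Groups overlapped in both lines, and replicate 2 was the highest array of both MV4-11 groups. Over the 5 probe sets, changes ran from -0.49 to -0.06 in U937 and from -0.09 to 0.34 in MV4-11. The most negative, on 211367_s_at in U937, came from groups that did not overlap and had an adjusted p of 0.340.

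Among the 22 probe sets of the 9 genes other than IL1R2, 1 rose and 0 fell in U937, where 4.51% of all probe sets were past the threshold (1.86% higher and 2.65% lower). In MV4-11, 4 of the 22 rose and 0 fell, from 3 genes, where 7.47% of all probe sets were past the threshold (3.88% higher and 3.59% lower). The median change of the 22 probe sets was -0.04 in U937 and 0.06 in MV4-11, beside medians of -0.0033 and -0.0267 over all probe sets. The shRNA groups did not overlap for 8 of the 22 probe sets in U937, beside 24.2% of all probe sets, and for 6 in MV4-11, beside 23.8%. Unadjusted p under 0.05 was reached by 4 of the 22 in U937 and 5 in MV4-11, beside 17.04% and 22.30% of all probe sets. The changes in the 2 lines were not shown to differ: 0 of the 22 passed the limma test of the difference and 1 had an unadjusted p under 0.05, where 0% of all probe sets passed and 979 of them, 4.41%, had such a p. The probe set with that p was 208200_at of IL1A, whose change was lower in MV4-11 by 0.43 (SE 0.14, adjusted p = 0.944).

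**Figure D2:**
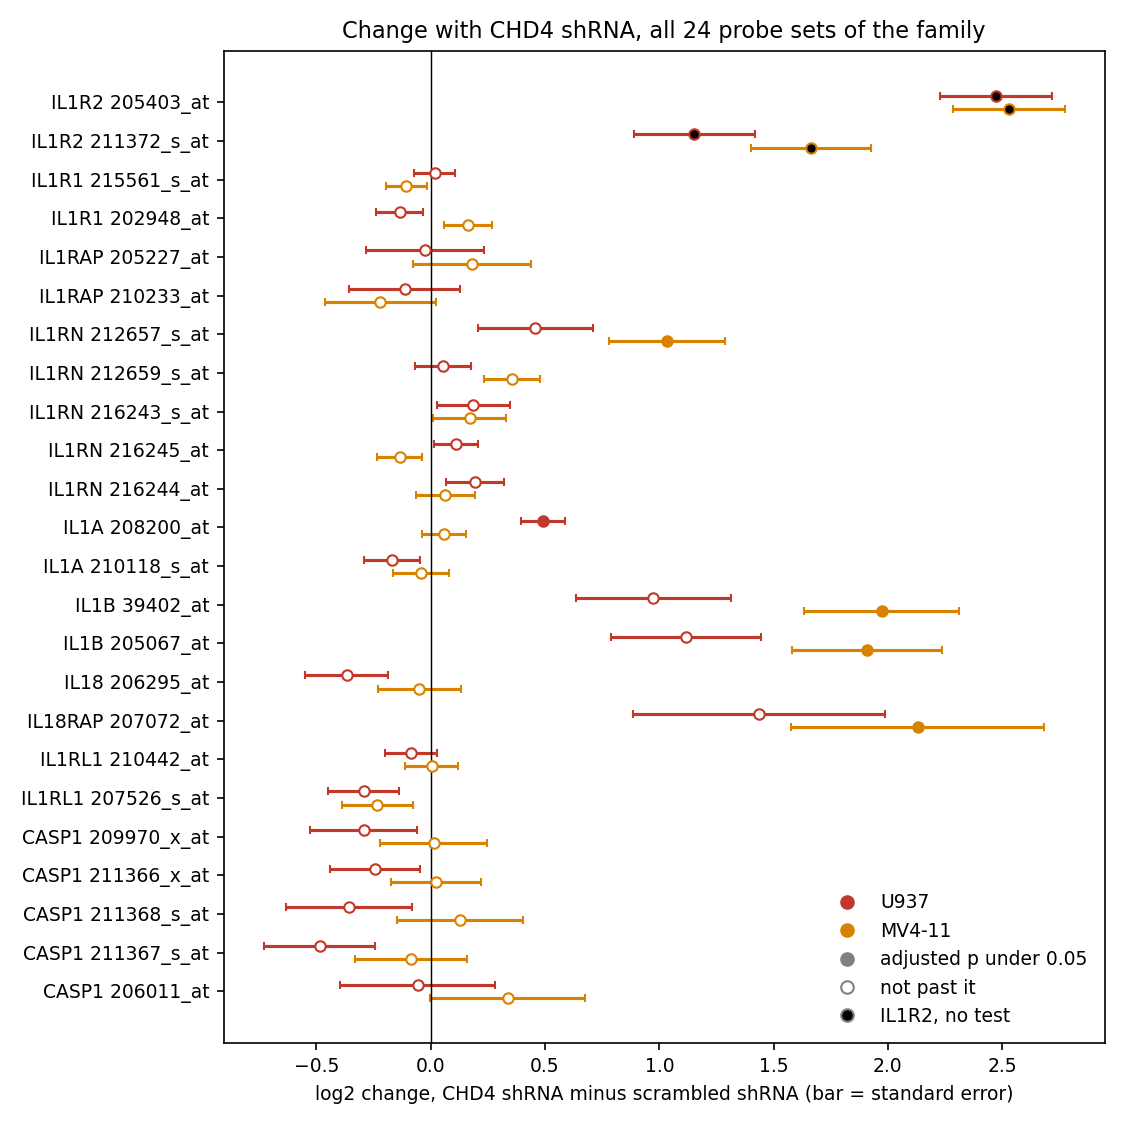
Log2 change with CHD4 shRNA (x axis) for all 24 probe sets of the family (y axis), with bars for the standard error, U937 in red and MV4-11 in orange; filled points are past an adjusted p of 0.05, open points are not, and IL1R2 has black centres because it was not tested. IL1R2 lies between 1.15 and 2.53, IL1B, IL18RAP and IL1RN are past the threshold in MV4-11, and 1 IL1A probe set is past it in U937.

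The arrays within a CHD4 shRNA group did not carry these changes equally. Relative to the mean of the scrambled arrays of the same line, IL1B on 39402_at differed by 0.49, 0.74 and 1.68 on U937 CHD4 shRNA replicates 1, 2 and 3, and by 2.05, 2.73 and 1.14 on those of MV4-11. IL18RAP differed by 0.56, 0.93 and 2.82 in U937 and by 2.51, 3.04 and 0.85 in MV4-11. IL1RN on 212657_s_at differed by 0.37, 0.46 and 0.53 in U937 and by 0.86, 1.78 and 0.45 in MV4-11. All 3 genes were highest on replicate 3 of U937 and on replicate 2 of MV4-11. IL1R2 on 205403_at differed by 2.23, 2.31 and 2.87 in U937, highest on the same array, and by 3.06, 2.46 and 2.08 in MV4-11, where replicate 1 was highest. MV4-11 replicate 3 was the lowest of its group for all 4 genes, and it was also the lowest for CHD4, at 8.39, against 8.79 and 8.85 on replicates 1 and 2.

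Interferon-stimulated genes moved with the same arrays. The median difference over 28 measured genes of that list was 0.03, 0.09 and 0.18 on U937 CHD4 shRNA replicates 1, 2 and 3, and 0.46, 1.22 and 0.27 on those of MV4-11. The scrambled arrays lay between -0.04 and 0.06. In MV4-11, 9 of the 28 genes rose and 1 fell, beside 4.39% higher and 4.36% lower of all 11963 genes, among them IFI44 at 2.60 (adjusted p = 0.00123) and IFI6 at 1.84 (adjusted p = 0.00124). In U937, IFITM1 and IRF7 rose and IFIH1 fell, 2 and 1 of the 28, beside 2.29% higher and 3.23% lower. Their part in the IL1B, IL18RAP and IL1RN results was not tested. Of 12 measured myeloid genes, 1 rose and 0 fell in each line, and 10 changes in U937 and 11 in MV4-11 were above 0. The median changes of that list were 0.10 and 0.20. Of 16 granulocyte genes, 0 rose and 1 fell in U937, and 0 rose and 2 fell in MV4-11. Its median changes were 0.02 and 0.11, beside -0.0033 and -0.0267 over all genes. Of 15 measured lymphoid genes, 2 rose in each line, CD2 and CD79B, and 1, PAX5, fell in U937, and the list's median on CHD4 shRNA arrays lay between -0.13 and 0.09 of the scrambled mean. Of 10 measured erythroid and megakaryocyte genes, ITGA2B, an integrin of platelets, rose by 1.30 in U937 and 0.97 in MV4-11, and KLF1, an erythroid transcription factor, fell by 1.03 in U937, with a list median on CHD4 shRNA arrays between -0.14 and 0.22 of the scrambled mean. Of 13 stromal and epithelial genes, 0 passed the limma test in either line, and 0 had an unadjusted p under 0.05.

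**Figure D3:**
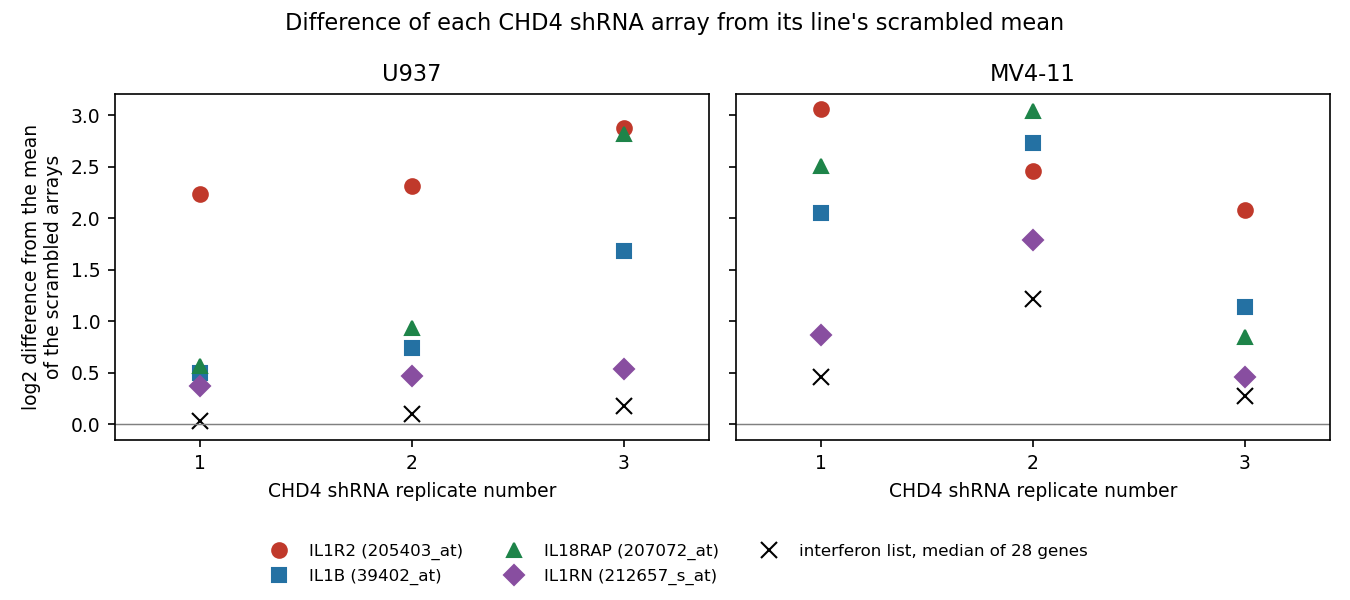
Log2 difference of each CHD4 shRNA array from the mean of the scrambled arrays of its line (y axis) by replicate number (x axis), for IL1R2, IL1B, IL18RAP, IL1RN and the median of 28 interferon-stimulated genes, with U937 on the left and MV4-11 on the right. Replicate 3 of U937 and replicate 2 of MV4-11 are highest for IL1B, IL18RAP, IL1RN and the interferon list, while IL1R2 in MV4-11 is highest on replicate 1, at 3.06.

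Further genes of the pathway came from lists written from textbook knowledge, but with earlier results of these data known. Calls on the listed genes, MMP9 among them, are therefore no independent test. Each gene is represented by its brightest probe set. Of 30 measured genes between receptor and NF-kappaB, 1 rose and 1 fell in U937, and 2 rose and 1 fell in MV4-11, beside 5.53% and 8.75% of all 11963 genes past the threshold in those lines. The list's median change was -0.015 in U937 and -0.0067 in MV4-11, beside -0.0033 and -0.0267 over all genes. IRAK3, a kinase-inactive brake on receptor signalling, rose in U937 on its brightest probe set. There it read 9.17, 9.05 and 9.17 with CHD4 shRNA against 8.54, 8.44 and 8.65 with scrambled shRNA (change 0.59, SE 0.10, adjusted p = 0.0045). The MV4-11 change was 0.28 (adjusted p = 0.0974). The other IRAK3 probe set was not past the threshold, with changes of 0.34 in U937 (adjusted p = 0.113) and 0.33 in MV4-11 (adjusted p = 0.0942). NFKB1, which encodes the p50 precursor, fell in U937 by 0.63 (SE 0.11, adjusted p = 0.00802), and its MV4-11 change of -0.34 had an adjusted p of 0.0921, or 0.0486 with the replicate number as a block. IRAK1, the kinase downstream of MYD88, fell in MV4-11 by 0.42 (adjusted p = 0.0388), a call lost, with adjusted p between 0.0568 and 0.155, without any of 7 arrays: scrambled shRNA replicates 1 and 2 of U937, the 3 scrambled arrays of MV4-11, and CHD4 shRNA replicates 1 and 3 of MV4-11. CHUK, an IkappaB kinase subunit, rose in MV4-11 by 0.71 (SE 0.20, adjusted p = 0.0447), and this call was lost without any array except CHD4 shRNA replicates 1 and 3 of U937 and replicate 3 of MV4-11, with adjusted p between 0.0547 and 0.172. NFKBIE, an NF-kappaB inhibitor, rose in MV4-11 by 0.55 (SE 0.14, adjusted p = 0.0325), and its adjusted p lay between 0.0874 and 0.132 without CHD4 shRNA replicate 1 or 2, or scrambled shRNA replicate 2 or 3, of MV4-11.

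Of 20 measured genes of inflammasomes and cytokine processing, 1 rose and 2 fell in U937, and 2 rose and 1 fell in MV4-11, with median changes of 0.025 and -0.0417. Of all 11963 genes, 5.53% were past the threshold in U937 and 8.75% in MV4-11. AIM2, the sensor of cytosolic DNA, rose in both lines. It read 6.22, 6.86 and 8.06 in U937 with CHD4 shRNA, against 5.06, 5.11 and 4.72 with scrambled shRNA (change 2.08, SE 0.41, adjusted p = 0.0124). In MV4-11 it read 6.92, 6.99 and 5.58 with CHD4 shRNA, against 4.36, 4.39 and 4.67 with scrambled shRNA (change 2.02, SE 0.41, adjusted p = 0.0115). The groups did not overlap, and the array order within each CHD4 shRNA group was that of IL1B. The AIM2 call was lost in U937 without scrambled shRNA replicate 3 of U937 (adjusted p = 0.0582), and in MV4-11 without CHD4 shRNA replicate 1 of MV4-11 (adjusted p = 0.0622). CASP8, a caspase that can also cut pro-interleukin-1 beta, rose in MV4-11 by 0.74 (SE 0.14, adjusted p = 0.00693). Its U937 change was 0.46 (adjusted p = 0.0761). The other CASP8 probe set changed by 0.48 in MV4-11 (adjusted p = 0.0163) and 0.24 in U937 (adjusted p = 0.268). CASP4, a caspase that senses intracellular lipopolysaccharide, fell in U937 by 0.64 on its brightest probe set (adjusted p = 0.0453). The call stood when replicate 3 of U937 CHD4 shRNA or replicate 2 or 3 of MV4-11 CHD4 shRNA was left out. Leaving out any other array lost the call, with adjusted p between 0.0519 and 0.192. The other CASP4 probe set was not past the threshold in U937 (change -0.26, adjusted p = 0.406). ELANE, neutrophil elastase, a granule protease that can process the cytokines, fell by 0.82 in U937 (SE 0.17, adjusted p = 0.0173) and by 0.69 in MV4-11 (SE 0.17, adjusted p = 0.029). The ELANE call was lost in U937 without scrambled shRNA replicate 1 or 2 of U937 (adjusted p = 0.0772 to 0.0785), and in MV4-11 without CHD4 shRNA replicate 1 or 2 or any scrambled array of MV4-11 (adjusted p = 0.0556 to 0.101). NLRP3, the sensor of the best-known inflammasome, changed by -0.07 in U937 and -0.13 in MV4-11, and PYCARD, the adaptor that joins sensors to caspase-1, by 0.28 and 0.37, none past the threshold.

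Of 27 measured genes that interleukin-1 is known to induce, 1 rose and 0 fell in U937, and 1 rose and 1 fell in MV4-11, with median changes of 0.0867 and -0.0333. The share past the threshold over all 11963 genes was 5.53% in U937 and 8.75% in MV4-11. MMP9, a gelatinase, was the gene that rose in both lines. It read 8.30, 8.57 and 9.23 in U937 with CHD4 shRNA, against 7.05, 7.20 and 6.77 with scrambled shRNA (change 1.69, SE 0.21, adjusted p = 0.000731). In MV4-11 it read 8.77, 8.81 and 8.33 with CHD4 shRNA, against 7.36, 7.13 and 7.38 with scrambled shRNA (change 1.35, SE 0.21, adjusted p = 0.00291). CCL5, a chemokine, fell in MV4-11 by 0.52 (adjusted p = 0.049). That call stood without CHD4 shRNA replicate 1 or 3 of U937 or CHD4 shRNA replicate 3 of MV4-11. Leaving out any other array gave an adjusted p between 0.0646 and 0.175. The other CCL5 probe set changed by -0.55 in MV4-11 (adjusted p = 0.0466). The cytokines IL6 and TNF and the cyclooxygenase PTGS2 did not pass, with changes of 0.05, 0.35 and -0.12 in U937 and -0.02, 0.62 and -0.07 in MV4-11. CXCL8, a neutrophil chemokine named after its values were seen, read 7.10, 8.60 and 5.78 in MV4-11 with CHD4 shRNA, against 4.93, 5.16 and 5.13 with scrambled shRNA. Its MV4-11 change of 2.09 (SE 0.59) had an adjusted p of 0.0507, or 0.0185 with the replicate number as a block. Its U937 change was 0.59 (adjusted p = 0.704). The other CXCL8 probe set changed by 1.23 in MV4-11 (adjusted p = 0.109) and 0.43 in U937 (adjusted p = 0.707).

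Of 20 measured genes that mediate or mark the glucocorticoid and type 2 cytokine pathways, which are known to induce IL1R2, 0 passed the limma test in U937, with 1 at an unadjusted p under 0.05, and 1 rose in MV4-11, with median changes of -0.0083 and 0. Over all 11963 genes, 5.53% passed in U937 and 8.75% in MV4-11. NR3C1, the glucocorticoid receptor, changed by 0.01 in U937 and -0.10 in MV4-11, and FKBP5, a glucocorticoid target, by -0.03 and 0.16. The riser was MAOA, a monoamine oxidase, at 6.17, 6.52 and 6.10 in MV4-11 with CHD4 shRNA against 5.60, 5.63 and 5.34 with scrambled shRNA (change 0.74, SE 0.14, adjusted p = 0.0085). Its other 2 probe sets each changed by 0.23 in MV4-11 and were not past the threshold. Of 9 measured further family members, 0 passed the limma test in either line, beside those same shares of all genes. Their median changes were -0.04 in U937 and 0.03 in MV4-11. An unadjusted p under 0.05 was reached by 0 of the 9 in U937 and by 1 gene in MV4-11. That gene was IL18R1, the ligand-binding chain of the interleukin-18 receptor, named after its values were seen. It read 7.51, 7.65 and 6.37 in MV4-11 with CHD4 shRNA, against 6.40, 5.68 and 5.58 with scrambled shRNA, which overlap slightly, and its change of 1.29 (SE 0.39) had an adjusted p of 0.0665, or 0.00602 with the replicate number as a block. In U937 its change was 0.10 (adjusted p = 0.944), from arrays at 6.65, 6.89 and 8.14 with CHD4 shRNA against 6.90, 6.98 and 7.49 with scrambled shRNA.

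Nearly all of these receptor and ligand genes lie in 2 gene clusters on chromosome 2, in an order taken from the RefSeq table (GRCh38.p14). Along the receptor cluster, IL1R2 stands beside MAP4K4, a kinase gene that fell by 0.56 in U937 (SE 0.11, adjusted p = 0.0146) and by 0.44 in MV4-11 (SE 0.11, adjusted p = 0.0337). On the other side of IL1R2 come IL1R1, IL1RL2 and IL1RL1, none of which passed the threshold in either line, and then IL18R1 and IL18RAP. IL1RL2, the receptor for IL36 cytokines, changed by -0.13 in U937 and -0.22 in MV4-11, and SLC9A2, a sodium and hydrogen exchanger beyond the cluster, by -0.01 and 0.08. In the ligand cluster, IL1A and IL1B lie side by side, followed by IL37, IL36G, IL36A and IL36RN, with changes between -0.04 and 0.19 in U937 and between -0.12 and 0.21 in MV4-11, and then by IL1RN. PSD4, the neighbour of IL1RN, changed by 0.25 and 0.32, and PAX8 by 0.21 and 0.09, none past the threshold.

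**Figure D4:**
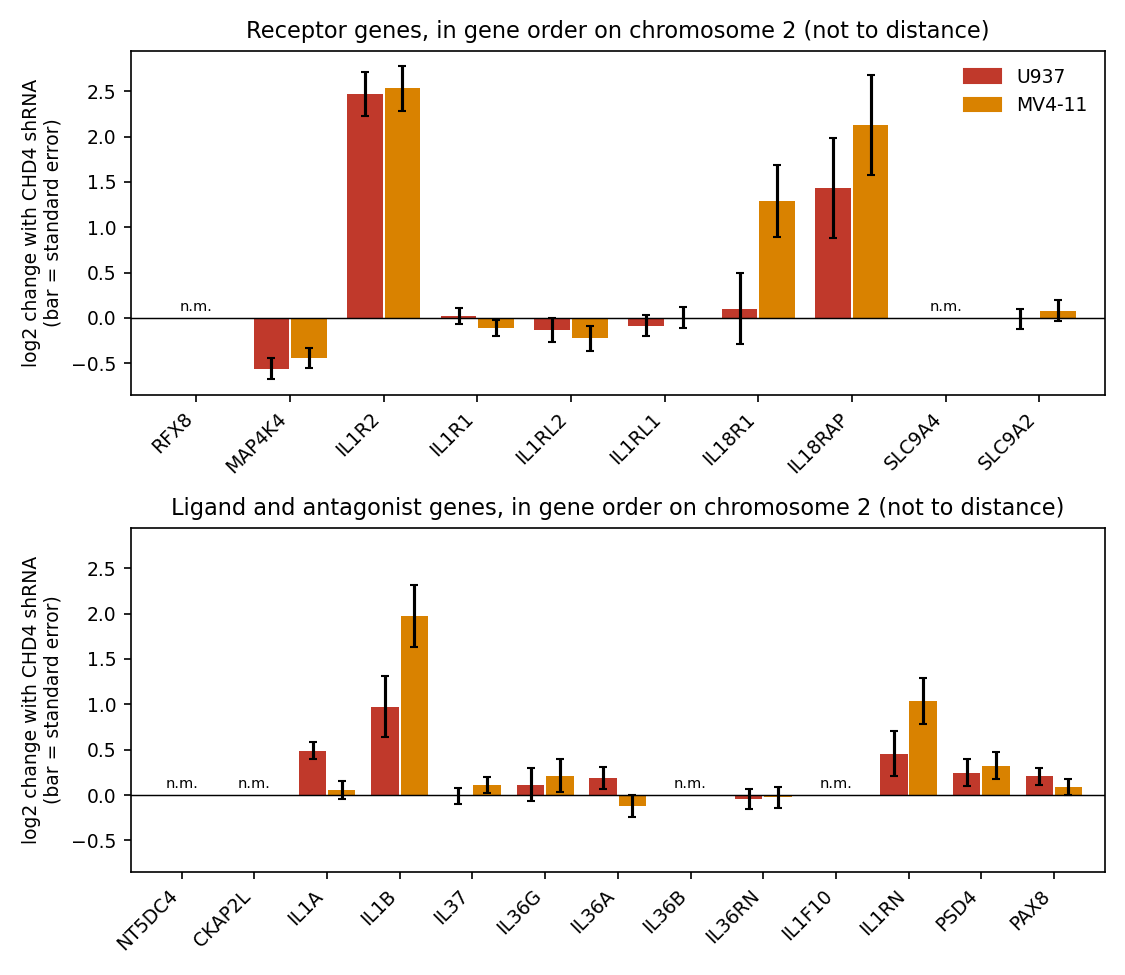
Log2 change with CHD4 shRNA (y axis, bars from 0 with the standard error) for genes in their order on chromosome 2 (x axis, evenly spaced, not to distance), U937 in red and MV4-11 in orange; n.m. marks genes with no probe set of 1 symbol. IL1R2 and IL18RAP stand above the genes between them, and IL1B and IL1RN above the genes between them in MV4-11.

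The genes whose pattern over the 12 arrays was most like that of IL1R2 were found by the root mean square difference in log2 value after each gene was centred on its own mean. The 5 nearest of 11963 genes were DHRS9 at 0.39, AKR1C3 at 0.43, S100A7 at 0.46, SLCO4C1 at 0.49 and CEACAM6 at 0.51. The second IL1R2 probe set was at 0.60, and the median over genes was 1.32. DHRS9, a retinol dehydrogenase, averaged 10.30 with CHD4 shRNA and 8.40 with scrambled shRNA in U937, and 10.98 with CHD4 shRNA and 8.60 with scrambled shRNA in MV4-11. AKR1C3, an aldo-keto reductase, averaged 6.34 with CHD4 shRNA and 4.15 with scrambled shRNA in U937, and 6.43 with CHD4 shRNA and 4.26 with scrambled shRNA in MV4-11. S100A7, a calcium-binding protein, had changes of 3.24 in U937 and 2.58 in MV4-11. SLCO4C1, an organic anion transporter, had changes of 1.46 and 2.15, and CEACAM6, an adhesion molecule, of 1.83 and 3.16. These values describe shared arrays and were not tested.

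Between the control lines, scrambled MV4-11 and scrambled U937 differed on 3 of the 22 probe sets of the 9 genes, 2 higher and 1 lower in MV4-11, beside 4.45% of all probe sets (2.37% higher and 2.08% lower). IL1RAP was higher in MV4-11 on both probe sets. On 205227_at the arrays read 8.22, 8.98 and 8.44 in scrambled MV4-11, against 7.34, 7.61 and 7.53 in scrambled U937 (difference 1.05, SE 0.26, adjusted p = 0.0366). On 210233_at the difference was 1.17 (SE 0.24, adjusted p = 0.0164), and the arrays did not overlap on either probe set. IL18 was lower in MV4-11, at 7.43, 7.78 and 8.16 in scrambled MV4-11 against 8.43, 8.46 and 8.88 in scrambled U937 (difference -0.80, SE 0.18, adjusted p = 0.0261). The IL1RAP calls were lost without any of 8 arrays on 205227_at (adjusted p up to 0.156) and any of 5 on 210233_at (up to 0.0811), and the IL18 call without any of 5 (up to 0.0882). All 3 calls were lost without any scrambled array of U937 or scrambled shRNA replicate 2 of MV4-11. The 205227_at call was also lost without CHD4 shRNA replicate 1 or 2 of U937, CHD4 shRNA replicate 1 of MV4-11 or scrambled shRNA replicate 3 of MV4-11. The 210233_at call was lost without that last array too, and the IL18 call without scrambled shRNA replicate 1 of MV4-11. IL1R2 did not pass this test: scrambled MV4-11 exceeded scrambled U937 by 0.33 (SE 0.24, adjusted p = 0.516) on 205403_at and by 0.03 (adjusted p = 0.970) on 211372_s_at.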

How the data were processed

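Total RNA of 12 cultures was hybridised as biotinylated cRNA to Affymetrix expression arrays, per the labels' protocols. The authors deposited 1 table of log2 values, and the submitters' processing notes name RMA without a version. Joint processing of the arrays is not stated there. The scale was inferred from the range of the values, 2.54 to 15.11, with array medians between 6.96 and 7.01 and correlations between arrays of 0.974 to 0.997. Quantile normalization fixes each array's distribution, background compresses the differences of dim probe sets, and the number of arrays limits the precision.

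Of 22277 probe sets, 62 controls were left out. The platform annotation gave 1 symbol to 19064 of the others and several to 1043, and 2108 were not listed there. Symbols were updated through Entrez identifiers, and all 24 probe sets of the members matched RefSeq. The members and lists were chosen with earlier results of these data known.

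limma 3.58.1 in R 4.3.3 fitted the 4 groups to all 12 arrays (8 residual and 4.86 prior degrees of freedom, eBayes without trend), with Benjamini-Hochberg adjustment over 22215 probe sets and a threshold of 0.05. The fit was tested on simulated data. Python 3.11.15 with pandas 2.3.3 and matplotlib 3.10.9 made the summaries and figures. Named are all probe sets of the members, up to 6 genes past the threshold per pathway list, CHD4 and the 5 genes most like IL1R2, with other names identified as chosen after their values were seen or given as list, marker or neighbour values.

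Titles number the arrays 1 to 3 in every group. In MV4-11, CHD4 shRNA and scrambled arrays of the same number deviated from their group means together (r = 0.457, 0.478 and 0.494 across probe sets), so the numbers were taken to pair them. In U937 r was 0.002, 0.351 and 0.336, and they were not. The main fit and the fits that left out 1 array did not use the pairing. No label explains the numbers, and p-values measure the spread between these arrays. Alternatives were a filter on dim probe sets, other normalizations, variance models, thresholds and array sets, 1 probe set a gene, the replicate block and leaving out each array.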

Additional observations from a re-analysis of the deposited data

How the results depend on the processing

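Counts are of the 22 probe sets of the 9 genes other than IL1R2 past the limma threshold. In U937 the count was 1, and it was 0 without the dimmest 25% of probe sets, which leaves 15 of the 22, and 0 at an adjusted p under 0.01, 2 at one under 0.1, and 3 with only the U937 arrays in the fit. In MV4-11 it was 4, and 2 at an adjusted p under 0.01 or with only the MV4-11 arrays. Between the scrambled lines it was 3, and 0 at an adjusted p under 0.01 and 6 with only the scrambled arrays. Leaving out 1 array gave 0 to 3 in U937 (0 without scrambled shRNA replicate 1 or CHD4 shRNA replicate 2 of U937), 2 to 5 in MV4-11 (2 without CHD4 shRNA replicate 1 or scrambled shRNA replicate 3 of MV4-11), 0 to 5 between the scrambled lines (0 without any scrambled array of U937 or scrambled shRNA replicate 2 of MV4-11, 5 without CHD4 shRNA replicate 2 of MV4-11), and 0 throughout for the difference between the shRNA changes. With the replicate number as a block, the counts stayed at 1, 4 and 0 for U937, MV4-11 and the difference, while calls over all probe sets went to 3700 against 1659 in MV4-11. In MV4-11 the block gave lower adjusted p for IL1RN 212657_s_at (0.00627), IL18RAP (0.0272), CHUK (0.00548), IRAK1 (0.0143), NFKBIE (0.00611), ELANE (0.00177) and CCL5 (0.0228). It gave higher adjusted p for IL1B 205067_at (0.0057), AIM2 (0.0116) and MMP9 (0.00473), all still past the threshold. In U937, where the numbers were not taken to pair the arrays, the block gave 2151 against 1002. For single named probe sets, 2592 values under the alternatives stayed on their side of the threshold (for IL1R2, which had no test, within its spread), 105 lost and 31 gained the call, and 0 calls reversed. Most of the 2592 belong to results that were not past the threshold in the main fit and had no call to lose. The 105 are therefore a larger share of the values that could lose a call. Quantile normalization, median centring, the trended variance and 1 probe set a gene kept every count within 1.5 times its value. Outside those counts, CCL5 lost its MV4-11 call with quantile normalization (adjusted p = 0.0573) and CHUK with median centring (0.0526). CASP8 gained a U937 call with quantile normalization (0.0352), and CXCL8 an MV4-11 call with 1 probe set a gene (0.0456). With only the MV4-11 arrays, CCL5 (0.0810), CHUK (0.0842), IRAK1 (0.113) and NFKBIE (0.132) lost their MV4-11 calls. RMA values carry no background measure, so the dim probe sets, such as those of IL1R1, give no bound on absence.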
